A study of Mus musculus with 24 samples.

Results

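The set described here holds 8 mouse genes for transcription factors of the hepatocyte lineage, namely Foxa1, Foxa2, Foxa3, Onecut1, Onecut2, Cebpa, Cebpb and Gata4. All probes carrying exactly one of these gene names on the array were taken, whatever their values, which gave 10 of 56605 probes and 8 of 37074 gene names. Of these, 9 probes for all 8 genes passed the filter on dim probes. The second probe of Gata4 did not, as it was well above background on 2 of 24 arrays.

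Liver RNA of male C57Bl6J mice was hybridised to 1-colour arrays, 1 per mouse. The mice were the third generation of 2 lineages that differed in the oil added to the diet of their forebears. The reference group (STD_Cont, 9 mice) came from the lineage with the control fatty acid, an oleic sunflower oil, and received a low-fat diet. The HFoleic group (HFD_Cont, 8 mice) came from the same lineage and received an obesogenic diet rich in fat and sucrose. The HFepa group (HFD_O3, 7 mice) received the obesogenic diet and came from the n-3PUFA lineage, supplemented with a fish oil rich in eicosapentaenoic acid (EPA). The arrays analysed here hold no EPA-lineage mice on the low-fat diet, and the effects of diet and of lineage with its oil cannot be told apart between HFepa and reference. All mice were killed while fasting. Litters were not taken into account, and the p-values measure the spread between mice.

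The 3 Foxa proteins are forkhead factors that bind nucleosomal DNA and open liver enhancers, where they act together with nuclear receptors in the fasted liver. Onecut1 (hepatocyte nuclear factor 6) and Onecut2 carry a cut domain and a homeodomain and take part in the choice between the hepatocyte and the bile duct fate. Cebpa and Cebpb are leucine zipper proteins, the former typical of the resting, metabolically active hepatocyte and the latter induced by cAMP and in the acute phase response, while Gata4 is a zinc finger factor of early endoderm that adult liver also holds in endothelial cells.

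Promoter sequence was available for 6 of the 8 genes, in 8 windows of 250 bases before a transcription start (RefSeq, GRCm38.p6). Gata4 and Onecut2 had no entry. The windows of Foxa1 and Foxa2 are shown because these 2 genes varied together between mice, and because they hold matches to the motifs of the set's own families. The Foxa1 window is chr12:57546112-57546361 on the minus strand and ends at the base before the start. Capitals mark a match to the forkhead motif GTAAACA, 141 to 135 bases before the start. The Foxa2 window, on the minus strand at chr2:148046970-148047219, is that of the most distant of 3 listed starts. Its capitals mark a match to the onecut motif ATTGANT, 213 to 207 bases before the start.
Foxa1: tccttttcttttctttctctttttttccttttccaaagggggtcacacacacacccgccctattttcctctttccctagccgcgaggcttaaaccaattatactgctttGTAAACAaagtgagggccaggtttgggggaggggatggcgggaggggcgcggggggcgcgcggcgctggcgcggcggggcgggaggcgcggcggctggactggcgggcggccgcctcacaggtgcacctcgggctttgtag
Foxa2: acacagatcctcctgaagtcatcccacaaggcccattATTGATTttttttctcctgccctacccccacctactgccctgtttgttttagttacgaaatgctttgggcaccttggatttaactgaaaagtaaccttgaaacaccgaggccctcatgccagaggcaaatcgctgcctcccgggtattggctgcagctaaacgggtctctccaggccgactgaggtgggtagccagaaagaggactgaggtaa

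Both strands were searched. The forkhead motif stood in 1 of the 8 windows and in 3.17% of 32851 promoters of this length. The onecut motif stood in 2 of the 8 windows, both of them before Foxa2, which has 3 of the 8, and in 7.48% of all promoters. The C/EBP motif TTGCNNAA was in 0 of 8 windows (9.56% of all promoters), and the GATA motif AGATAA was in 1, that of the most downstream Foxa2 start (9.99%). The cAMP response element core TGACG was found 3 times before Cebpb and 1 time before Onecut1 (17.77% of all promoters hold it). A match describes letters only and says nothing of binding in these livers.

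An array measured between 28804 and 34432 probes well above background. Median signals ran from 59.5 to 89.0 across the arrays, with 0 saturated spots. The arrays lay on 3 slides and in 2 rows per slide, and every slide and every row held all 3 groups. The 10 hepatocyte marker genes were well above background on all 24 arrays, with a mean log2 signal per mouse of 15.76 to 16.07 in the reference, 15.68 to 15.96 in HFoleic and 15.64 to 15.998 in HFepa. In HFoleic against reference, by limma on the brightest probe of each, 3 of the 10 were called, Cps1 (-0.89, adjusted p 0.00166) and Arg1 (-0.66, adjusted p 0.00332) lower and Asgr1 (0.21, adjusted p 0.0196) higher. A dimmer probe of Ttr and of Hal was called too, and in HFepa against reference 0 were called. Of 7 exocrine pancreas genes, 3 passed the filter, all 3 of them well above background on all 24 arrays. Cpa1, Prss2, Pnlip and Cela3b did not pass it. The mean log2 signal per mouse of the 3 was 8.04 to 8.99 in the reference, 8.29 to 8.57 in HFoleic and 8.26 to 9.54 in HFepa. The part of such genes in the members' values was not tested. Of 7 bile duct genes, 5 passed it and Epcam and Cftr did not.

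All differences below are between group means of quantile normalized log2 signal, tested by limma with p-values adjusted over all 30003 tested probes. A probe was called at an adjusted p under 0.05. In HFoleic against reference, 0 of the 9 member probes were called, where limma called 7.23% of all probes (4.05% higher), and 3 of 9, all higher, had an unadjusted p under 0.05 (21.1% of all probes, 11.6% higher). In HFepa against reference, 1 of 9 was called, that of Onecut2, against 0.393% of all probes (0.19% higher), and 3 of 9, all higher, had an unadjusted p under 0.05 (13.5%, 7.07% higher). In HFepa against HFoleic, 0 of 9 were called, as were 0% of all probes, and 1 of 9, higher in HFepa, had an unadjusted p under 0.05 (9.7%, 4.24% higher).

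The signs leaned upward in both high-fat groups. All 9 member probes had a higher mean in HFoleic than in the reference (49.8% of all probes did), with a median difference of 0.21 log2 units against -0.00072 over all probes. In HFepa, 8 of 9 had a higher mean than in the reference (51.7% of all probes), with a median of 0.14 against 0.0047. These 2 comparisons share the reference mice. The 9 probes are not independent readings either, as 2 of them read Onecut1 and those of Foxa1 and Foxa2 varied together. The Foxa3 difference in HFoleic was 0.00064 and changed sign under some other settings. Between HFepa and HFoleic, 3 of 9 were higher in HFepa (51.8% of all probes) and the median was -0.08 against 0.0048. The groups overlapped for every member probe in every comparison, where 0.573%, 0.113% and 0.147% of all probes had groups without overlap.

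**Figure D1:**
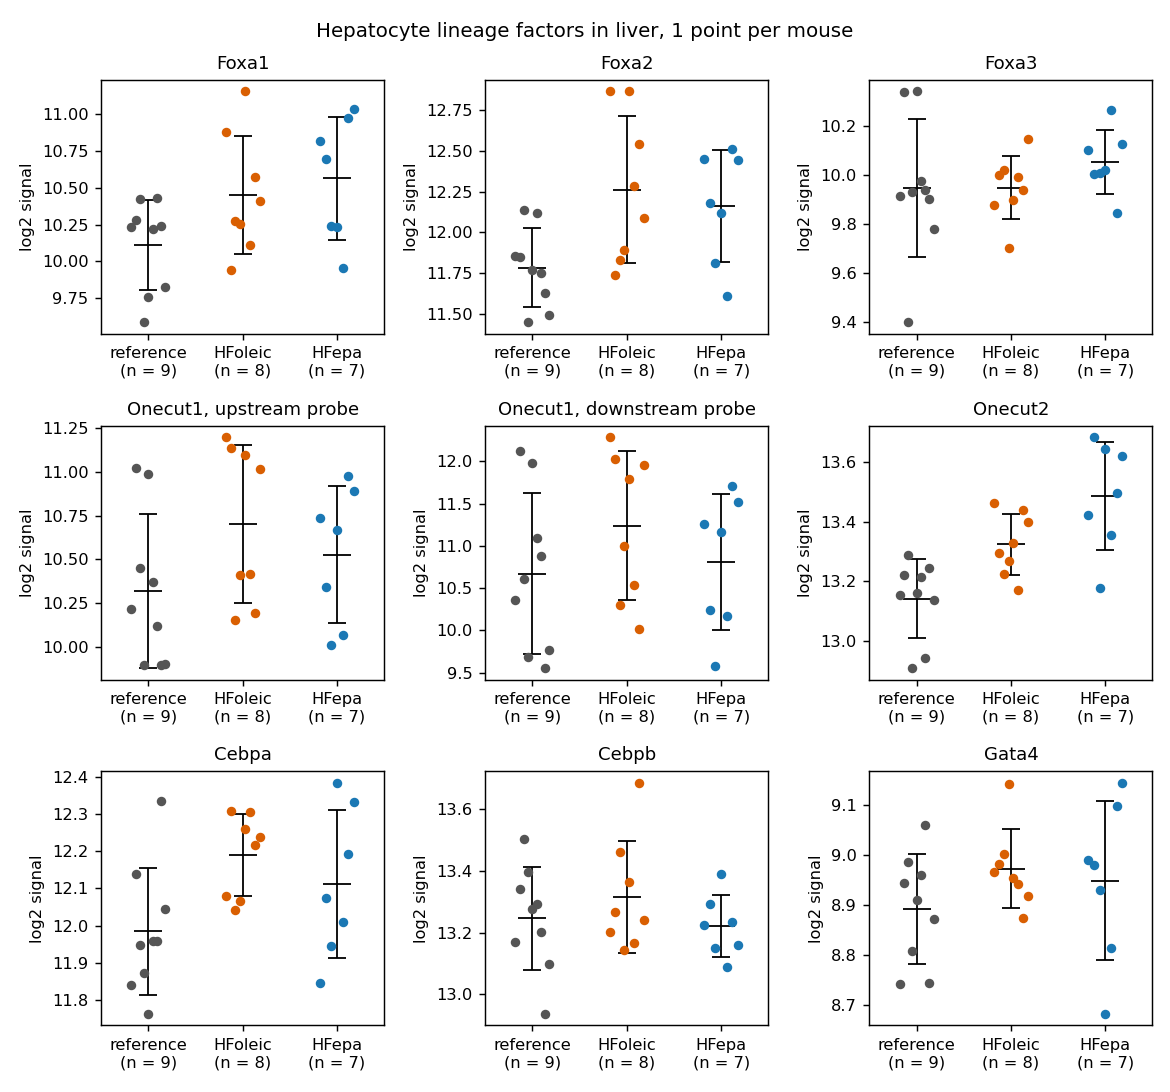
Log2 signal of the 9 tested member probes in each mouse, by group; points are mice, and the horizontal mark and bar give the mean and SD of the group. Each panel has its own axis, and no panel shows groups without overlap.

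**Figure D2:**
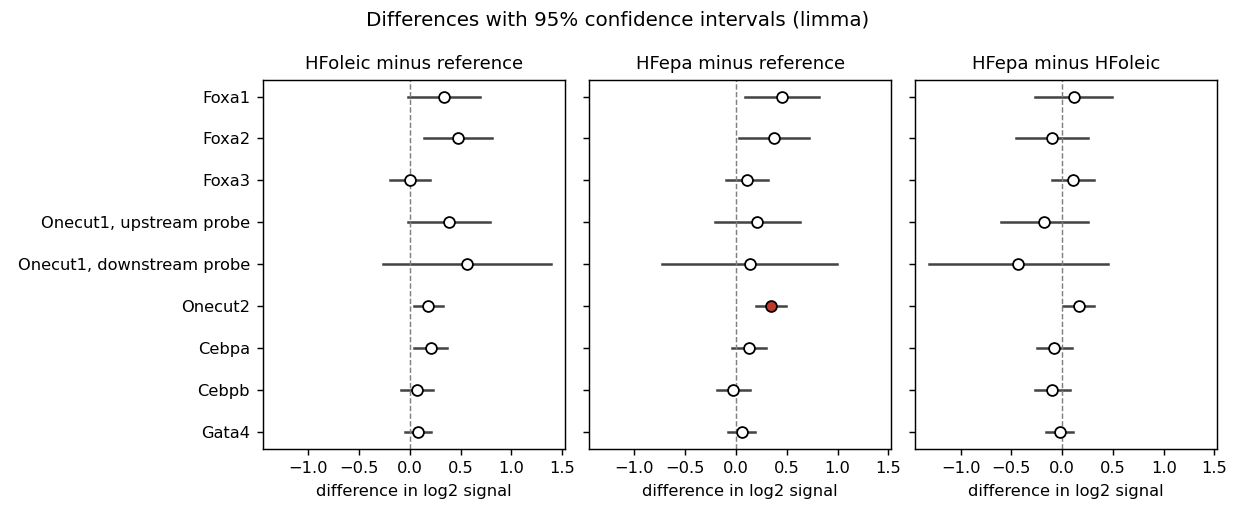
Differences between group means in log2 signal for the 9 tested member probes, with 95% confidence intervals from limma, in the 3 comparisons. The filled point marks the probe called at an adjusted p under 0.05, Onecut2 in HFepa against reference (0.34), and the widest intervals are those of the downstream Onecut1 probe.

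Onecut2 was the member that passed the test. Its probe (mm9, chromosome 18, 64546262 to 64546321) gave a log2 signal of 12.91 at the lowest, 13.16 at the median and 13.29 at the highest in the reference. In HFoleic the lowest, median and highest were 13.17, 13.31 and 13.46, and in HFepa they were 13.18, 13.49 and 13.68. The HFepa mice sat mostly above the reference range, with 6 of 7 above every reference mouse and 1 inside it. The HFoleic mice lay between, with 5 of 8 above every reference mouse.

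Onecut2 rose in HFepa by 0.34 log2 units relative to the reference (SE 0.073, 95% interval 0.19 to 0.49), a 1.27-fold higher signal, with an adjusted p of 0.0344 by limma. It ranked 68 of 30003 probes by p in this comparison and was above the reference mean in 7 of 7 HFepa mice. On the deposited log2 values Onecut2 was called as well, with a difference of 0.34. Within the 3 slides the difference was 0.23, 0.32 and 0.49, and within the slide rows it was 0.28 and 0.37. The call rested on single mice and on the setting of the test. It was lost in 10 of 24 fits that left out 1 mouse, namely without reference replicate 1, 2, 4, 7 or 9 or HFepa replicate 1, 2, 4, 6 or 7 (difference 0.31 to 0.40 and adjusted p 0.0124 to 0.0825 over all 24), and in 5 of 11 other settings, with an adjusted p of 0.0257 to 0.157 over them. The 24 leave-outs include those of the 8 HFoleic mice, whose mean does not enter this difference. All 10 that lost the call removed a mouse of the 2 groups compared.

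In HFoleic the Onecut2 signal was 0.18 log2 units above the reference (SE 0.070, interval 0.037 to 0.33, adjusted p 0.122 by limma), with 8 of 8 mice above the reference mean. HFepa minus HFoleic was 0.16 (interval 0.0083 to 0.32, p 0.0397, adjusted p 0.486 by limma), so a difference between the 2 high-fat groups was not established. Bulk liver RNA cannot tell a larger number of cells that carry a transcript from more of it per cell.

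Onecut1 was read by 2 probes 70 bases apart on chromosome 9 of mm9, the upstream one at 74737272 to 74737331 and the downstream one at 74737402 to 74737461, both on the plus strand. The upstream probe is shown because only it holds a reading frame without a stop codon. It also gave the narrower spread of a pair that otherwise moved together. Of its 3 reading frames 2 hold no stop codon, and of those of the downstream probe 0.
Onecut1 upstream probe: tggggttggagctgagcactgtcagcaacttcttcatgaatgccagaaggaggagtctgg

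Across the 24 mice, centred on their group means, the 2 probes correlated at r = 0.965 (0.973, 0.948 and 0.954 within slides 1, 2 and 3), as a description of 2 readings of the same RNA. The residual SD was 0.43 log2 units by the upstream probe and 0.89 by the downstream probe, a ratio of 2.07, and the slope of the downstream on the upstream values was 2.0. The size of a log2 difference in Onecut1 thus depended on the probe. Of all tested probes, 99.5% had a smaller residual SD than the downstream probe and 94.2% a smaller one than the upstream probe.

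**Figure D3:**
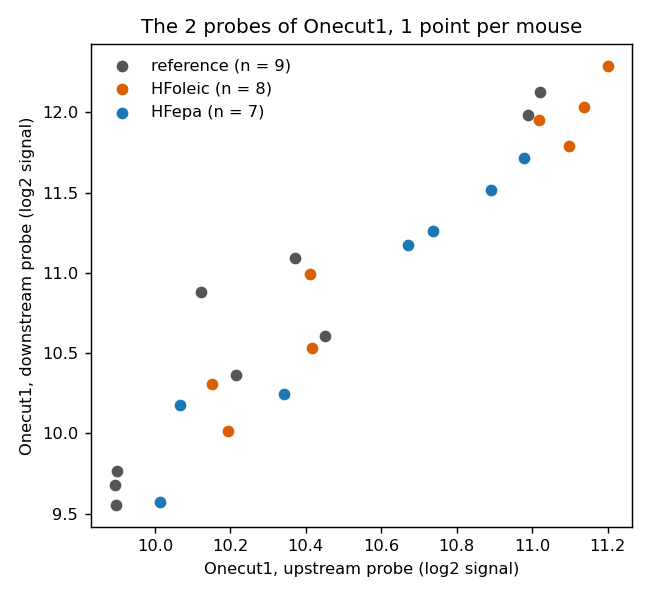
Log2 signal of the downstream against the upstream probe of Onecut1, 1 point per mouse, coloured by group. The 24 mice follow a line along which the downstream signal spans 2.73 and the upstream signal 1.31 log2 units, and each group spreads along most of it.

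By the upstream probe the lowest, median and highest Onecut1 signals were 9.90, 10.21 and 11.02 in the reference, 10.15, 10.72 and 11.20 in HFoleic and 10.01, 10.67 and 10.98 in HFepa. Mice with high and with low signal occurred in every group, and 3 of 8 HFoleic mice lay above every reference mouse. HFoleic minus reference was 0.39 (interval -0.018 to 0.79, adjusted p 0.262 by limma), HFepa minus reference 0.21 (-0.21 to 0.63) and HFepa minus HFoleic -0.18 (-0.61 to 0.26). By the downstream probe these differences were 0.57 (-0.26 to 1.39, adjusted p 0.457), 0.14 (-0.72 to 0.99) and -0.43 (-1.31 to 0.45). None was called, and the intervals of the downstream probe were the widest of the set.

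Among the forkhead factors, Foxa2 stood nearest to a call after the diet in the oleic lineage. Its probe (mm9, chromosome 2, 147868669 to 147868728, minus strand) gave 11.45, 11.77 and 12.14 as the lowest, median and highest log2 signal in the reference, 11.74, 12.19 and 12.86 in HFoleic and 11.61, 12.18 and 12.51 in HFepa. In each high-fat group 4 mice lay above every reference mouse, and 1 lay below the reference mean.

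HFoleic minus reference was 0.48 for Foxa2 (SE 0.16, interval 0.14 to 0.81), a 1.39-fold ratio, with a p of 0.00673 and an adjusted p of 0.0727 by limma, which missed the threshold. It was past the threshold with the processed signal (0.55, adjusted p 0.0463), with median centring in place of quantile normalization (0.52, adjusted p 0.0499) and without HFoleic replicate 2 (0.55, adjusted p 0.0398). Within slides it was 0.35, 0.65 and 0.50. HFepa minus reference was 0.38 (interval 0.031 to 0.72, adjusted p 0.321), and HFepa minus HFoleic was -0.10 (-0.46 to 0.25, adjusted p 0.903).

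Foxa1 (mm9, chromosome 12, 58641764 to 58641823, minus strand) ranged from 9.59 through a median of 10.23 to 10.43 in the reference, from 9.94 through 10.34 to 11.16 in HFoleic and from 9.96 through 10.70 to 11.04 in HFepa. Above every reference mouse lay 3 of 8 HFoleic and 4 of 7 HFepa mice. HFepa minus reference was 0.45 (interval 0.086 to 0.82, p 0.0176, adjusted p 0.249 by limma), HFoleic minus reference 0.34 (-0.015 to 0.69, adjusted p 0.259) and HFepa minus HFoleic 0.11 (-0.26 to 0.49).

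Foxa3, the forkhead factor of this family that is expressed in liver from a later stage of development, differed little in mean. Its probe (mm9, chromosome 7, 19599053 to 19599112, minus strand) had a mean of 9.95 in the reference (SD 0.28, n = 9) and the same to 2 decimals in HFoleic (SD 0.13, n = 8), while the HFepa mean was 10.05 (SD 0.13, n = 7). All HFoleic and HFepa mice lay inside the reference range of 9.40 to 10.34. HFoleic minus reference was 0.00064 (interval -0.20 to 0.20), and the other differences were both 0.11 (HFepa minus reference -0.099 to 0.31, HFepa minus HFoleic -0.10 to 0.32), none of them called.

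Foxa1 and Foxa2 varied together from mouse to mouse. Of 28 pairs among the 8 genes (brightest tested probe, which for Onecut1 is the downstream one, values centred on the group mean, 24 mice), this was the only one past Benjamini-Hochberg adjustment. Pearson's r was 0.845 (permutation p 1e-05, the smallest that 100000 resamples within groups can give, adjusted p 0.00028), and Spearman's rho was 0.775 (permutation p 8e-05, adjusted p 0.00224). Without HFepa replicate 5 and reference replicate 4, the mice farthest from the Foxa1 median, r was 0.812 (permutation, adjusted p 0.00252).

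The relation of Foxa1 and Foxa2 had the same sign within every group and slide. It was 0.674 in the reference, 0.885 in HFoleic and 0.938 in HFepa. Within slides 1, 2 and 3, each of 8 mice, it was 0.833, 0.952 and 0.739 (permutation p 0.0543, 0.0275 and 0.0693, adjusted over the 28 pairs 0.712, 0.381 and 0.574), and within the slide rows it was 0.931 and 0.732. A slide held only 2 or 3 mice of each group, which allows few rearrangements. The lowest permutation p of any pair on a slide, 0.0134, had an adjusted p of 0.375. A pair alone could thus not pass adjustment within a slide, whatever its r. The Foxa1 and Foxa2 probes, of 60 bases each, share no run of more than 7 identical bases. Probes were compared only with each other and not with the transcripts of the other genes, so binding of a probe to the other gene's transcript was not tested. The longest run shared by any of the 45 pairs of member probes was 9 bases. The remaining 27 pairs lay between -0.27 and 0.51, with a lowest permutation adjusted p of 0.145. The highest of them was Foxa2 with Onecut2 (r = 0.512, rho = 0.497, permutation p 0.0103 and 0.0186), which passed with the processed signal (r = 0.577, permutation adjusted p 0.0314) but not without the 2 mice farthest from the Foxa2 median (r = 0.518, permutation adjusted p 0.251).

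**Figure D4:**
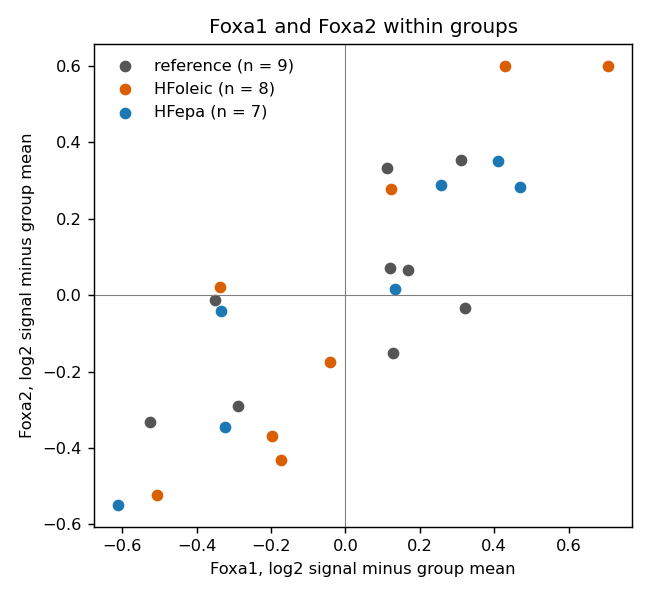
Foxa2 against Foxa1 in each of the 24 mice, as log2 signal minus the mean of the mouse's group, coloured by group. The points rise together in all 3 groups (r = 0.674, 0.885 and 0.938 in reference, HFoleic and HFepa).

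Foxa1 and Foxa2 were also among the more variable probes within groups. Their residual SDs were 0.38 and 0.35 log2 units, larger than those of 91.3% and 89.5% of tested probes, whose median was 0.18. Gata4 (0.12), Onecut2 (0.14), Cebpb (0.16) and Cebpa (0.16) lay below that median, and Foxa3 (0.20) just above it. The same size of difference was therefore harder to detect for Foxa1, Foxa2 and Onecut1 than for the others.

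Cebpa, a driver of the genes of resting hepatocytes, was higher than the reference mean in 8 of 8 HFoleic mice, although none of them exceeded the highest reference mouse. Its probe (mm9, chromosome 7, 35906517 to 35906576, plus strand) gave 11.76, 11.96 and 12.33 as lowest, median and highest in the reference, 12.04, 12.23 and 12.31 in HFoleic and 11.85, 12.07 and 12.38 in HFepa. HFoleic minus reference was 0.21 (interval 0.041 to 0.37, p 0.0165, adjusted p 0.125 by limma). It was called without reference replicate 8, the highest reference mouse (0.25, adjusted p 0.0325). HFepa minus reference was 0.13 (-0.043 to 0.30) and HFepa minus HFoleic -0.08 (-0.25 to 0.097).

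Cebpb and Gata4 differed little in mean between the groups. Cebpb (mm9, chromosome 2, 167515828 to 167515887, plus strand) had reference, HFoleic and HFepa means of 13.25 ± 0.17 (SD, n = 9), 13.32 ± 0.18 (SD, n = 8) and 13.22 ± 0.10 (SD, n = 7). Its differences were 0.07 (interval -0.089 to 0.23) for HFoleic minus reference, -0.03 (-0.19 to 0.14) for HFepa minus reference and -0.10 (-0.27 to 0.074) for HFepa minus HFoleic. Gata4, by the probe that was well above background on 24 arrays (mm9, chromosome 14, 63817858 to 63817917, minus strand), had means of 8.89 ± 0.11 (SD, n = 9), 8.97 ± 0.078 (SD, n = 8) and 8.95 ± 0.16 (SD, n = 7). Its differences were 0.08 (-0.045 to 0.21), 0.06 (-0.074 to 0.19) and -0.02 (-0.16 to 0.11) in the same order. The intervals of these 2 genes end short of 0.30 log2 units on either side. The other Gata4 probe (chromosome 14, 63860003 to 63860062) gave a median spot signal of 35 to 57 over the arrays.

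The genes whose pattern over the 24 mice was most like that of each member were sought by Pearson's r of group-centred values. This is a description with no test. The correlations covered the 28080 tested probes with a value on every array. Of these, only probes with a RefSeq gene symbol outside the members were ranked. For Foxa2 they were Phlda1 (0.884), Cish (0.881), a feedback inhibitor of cytokine and growth hormone signalling, and Arid5b (0.844). For Foxa1 they included Usp28 (0.810) and Acadsb (0.792). For Onecut2 they were Ncoa6 (0.784), a nuclear receptor coactivator, Chac1 (0.772) and Ptges3 (0.759). For Onecut1 they were Tmem51os1 (0.753), Rnf103 (0.746) and Zfp236 (0.739).

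The remaining members had neighbours at a like distance. For Cebpa these were Stbd1 (0.785), which binds glycogen, Opa3 (0.780) and 4930581F22Rik (0.769), and for Cebpb Stk17b (0.790), Itprip (0.739) and Errfi1 (0.734), an inhibitor of the epidermal growth factor receptor. For Foxa3 they were Fbxl21 (0.749), Rangrf (0.744) and Olfr777 (0.720), and for Gata4 Nucks1 (0.796), Mib2 (0.7502) and Nsun2 (0.738). Every r is the highest of many, which makes it large by selection.

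The partners and paralogs of the set comprised Cebpd, Cebpg, Cebpe and Ddit3 of the C/EBP family, Onecut3, Gata6 and the GATA cofactors Zfpm1 and Zfpm2. Of 8 genes 7 were tested, each by its brightest probe, and Onecut3 was below the filter. Cebpe, best known from granulocytes, rose in HFoleic by 0.93 log2 units over the reference (SE 0.21, adjusted p 0.00703 by limma), and the other 6 were not called. In HFepa 0 of 7 were called, and Cebpe was 0.51 above the reference (adjusted p 0.283). The median difference over the 7 genes was 0.019 in HFoleic and 0.18 in HFepa.

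Among 13 other liver transcription factors, 1 rose and 1 fell in HFoleic against the reference. Xbp1, the factor of the unfolded protein response, rose by 0.68 (SE 0.11, adjusted p 0.00077, 3 of 3 probes called), and Prox1, a homeobox factor of hepatoblasts and lymphatic vessels, fell by 0.40 (SE 0.096, adjusted p 0.0114, 1 of 2 probes called). Hnf4a, the nuclear receptor that shares many enhancers with the Foxa and C/EBP proteins, was 0.20 higher in HFoleic (adjusted p 0.169) and 0.25 higher in HFepa (adjusted p 0.208). In HFepa against the reference 0 of 13 were called, and the list's median difference was -0.05 in HFoleic and 0.10 in HFepa.

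Of 12 cofactors and upstream regulators, Nr3c1, the glucocorticoid receptor, rose in HFoleic by 0.36 (SE 0.071, adjusted p 0.0035, 1 of 2 probes called). Ppargc1a, a coactivator of gluconeogenic genes, fell by 0.54 (SE 0.15, adjusted p 0.0296, 2 of 2 probes called). The remaining 10 were not called, and 0 of 12 were called in HFepa, where Ppargc1a was 0.62 below the reference (adjusted p 0.0700). Between HFepa and HFoleic 0 genes of these 3 lists were called. Prox1 came nearest, 0.61 higher in HFepa with an adjusted p of 0.0506 by limma. No probe had a smaller adjusted p in that comparison, a value that several probes can share. Prox1 was 0.21 above the reference in HFepa (adjusted p 0.352). Of all probes, 2910 had an unadjusted p under 0.05 in that comparison, 1 of them Onecut2's.

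**Figure D5:**
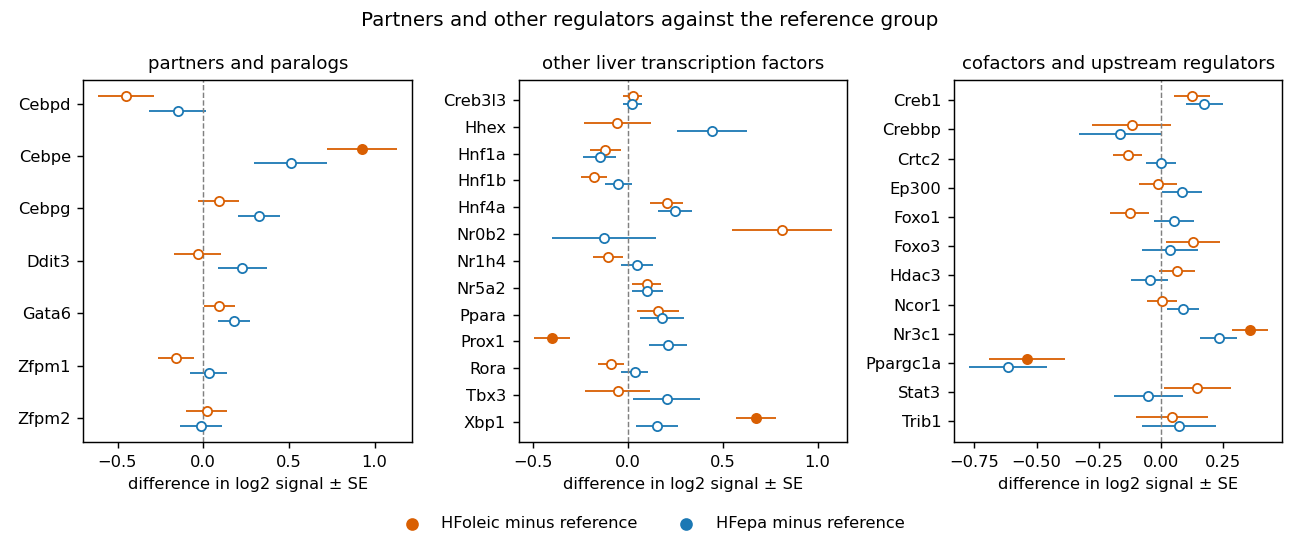
Differences from the reference in log2 signal, with SE, for the tested partners and paralogs (7 genes), other liver transcription factors (13) and cofactors and upstream regulators (12). Filled points were called at an adjusted p under 0.05, all of them in HFoleic (Cebpe, Xbp1, Prox1, Nr3c1 and Ppargc1a).

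The fasting and amino acid enzyme genes, several of which are textbook targets of these factors, moved in HFoleic while the members were not called. Of 12 genes 7 were called lower than the reference, 1 was called higher and 4 were not called. The list's median difference was -0.57. Of all 30003 tested probes, 956 were called lower and 1214 higher. The largest falls were those of Cyp7a1 (-1.61, adjusted p 0.00821, 1 of 2 probes called), the rate-limiting enzyme of bile acid synthesis, Igfbp1 (-1.34, adjusted p 0.00344) and Sds (-0.96). In HFepa 0 of 12 were called, and the median was -0.33. Falls of fasting genes in HFoleic were known from earlier work on these arrays when the list was written.

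Markers of other liver cells were read beside the members. For Kupffer cells 0 of 7 genes were called in any comparison, with a mean log2 signal per mouse of 10.003 to 11.01 in the reference, 10.21 to 11.26 in HFoleic and 10.46 to 11.26 in HFepa. All 7 Kupffer cell genes nevertheless had a higher mean than in the reference in both high-fat groups, with a median difference of 0.18 in HFoleic and 0.25 in HFepa, beside 0.21 and 0.14 for the members. For sinusoidal endothelium, where Gata4 is also expressed, 0 of 7 were called (10.11 to 10.47, 9.98 to 10.58 and 10.28 to 10.60). For bile duct, where Onecut factors are also expressed, 1 of 5 tested genes fell in HFoleic, Sox9 by 0.65 (adjusted p 0.0279, 1 of 2 probes called), and the list ranged from 7.31 to 9.25, 7.33 to 7.68 and 7.45 to 7.92. Of 7 tested clock genes of the Per and Dbp phase, Nr1d2 rose in HFoleic by 0.58 (adjusted p 0.01002, 3 of 3 probes called). The list ranged from 9.00 to 10.46, 9.58 to 10.87 and 9.29 to 11.14, with a median difference from the reference of 0.58 in HFoleic and 0.42 in HFepa. Per1 of that list went the other way, at -0.86 in HFoleic and -0.16 in HFepa (adjusted p 0.163 and 0.683 by limma). Of 4 tested clock genes of the opposite Bmal1 phase 0 were called, with medians of -0.20 and -0.14. Arntl differed from the reference by -0.70 in HFoleic and -0.62 in HFepa (adjusted p 0.0663 and 0.246 by limma), and Clock by -0.08 and -0.02. The part of these genes in the members' values was not tested.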

How the data were processed

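The authors deposited 1 scanner output per array (Agilent Feature Extraction 10.10.1.1), whose spot signals are intensities without normalization and whose columns for outlier spots and for signal above background hold 0 or 1, per the file headers. They also deposited a filtered, quantile normalized log2 matrix of 32176 probes, which held 9 of the 10 member probes and served as an alternative. Its filter is not given in the sources used here. Probe coordinates and gene names are those of the scanner files (mm9).

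Median signals of a probe's spots were averaged on the log2 scale without outlier spots, and a probe was kept (30003 of 56605) when some group had it well above background on 75% or more of its arrays. Values were then quantile normalized. Limma 3.58.1 (R 4.3.3, with version 1.17.8 of data.table) fitted group means to all 24 arrays, with 3 two-sided contrasts and Benjamini-Hochberg adjustment within each. The study's methods name the signal, the normalization, lmFit and the adjustment, and their t-test was run as an alternative. Correlations were tested by 100000 permutations within groups, two-sided (Python 3.11.15, numpy 2.4.6, pandas 2.3.3, scipy 1.17.1, matplotlib 3.10.9 for plots). The scripts were tested on simulated data.

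Members, gene lists and tests were chosen with earlier results of these data known. The genes named are all members, the called genes of each list (up to 4 with the largest change per comparison) and the 3 symbols most like each member, except 2 genes that are not reported here. Hnf4a, Arntl, Per1, Clock, Hamp and Saa3 had no call and were named after their values were seen, Hnf4a for its role. Alternatives were the deposited log2 matrix, the processed signal minus its 75th percentile, normexp with an offset of 50, median centring, no filter and a filter on all arrays, slide, slide row or replicate number as a block, a fit of the 2 groups compared, the methods' t-test and leaving out each array. The number of arrays limits the precision.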

Additional observations from a re-analysis of the deposited data

How the results depend on the processing

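Of 297 values of the member probes under 11 other settings, 286 kept their direction and their side of the threshold, 2 passed it, 5 lost it and 4 changed sign. Of 648 values with 1 mouse left out, the numbers were 621, 2, 10 and 15. These include leave-outs of mice from the group that a difference does not compare. Only the Onecut2 difference in HFepa against reference was called in the main fit, and all 10 losses were its own. The other differences had no call to lose, so the high share of kept values says little of robustness. The Onecut2 call in HFepa against reference was lost with the processed signal (0.343, adjusted p 0.0518), without a filter on dim probes (0.344, 0.0796), with the methods' t-test (0.345, 0.157), in a fit of the 2 groups alone (0.345, 0.111) and with the replicate number as a block (0.357, 0.0728), and it ranged from 0.312 to 0.396 over the leave-outs. Probes called in HFepa against reference numbered 118, 60 with the processed signal, 13 in the fit of the 2 groups, 0 without the filter (4845 at an unadjusted p under 0.05) and 0 by the methods' t-test (3472 unadjusted), and 0 (without HFepa replicate 2) to 499 (without reference replicate 8) over the leave-outs. Between HFepa and HFoleic the number was 0 (2910 unadjusted), 2 with the filter on all arrays, and 0 to 15 over the leave-outs (15 without HFepa replicate 5). In HFoleic against reference it was 1602 to 3097 over the leave-outs. Member differences near 0 changed sign: that of Foxa3 in HFoleic was -0.035 with normexp, -0.011 with the slide row as a block, -0.020 with the replicate block and -0.068 to 0.050 over the leave-outs, and that of the downstream Onecut1 probe in HFepa was -0.015 with the replicate block and -0.016 to 0.34 over the leave-outs. The leave-out range was -0.065 to 0.0062 for Cebpb in HFepa and -0.056 to 0.020 for Gata4 between HFepa and HFoleic. The correlation of Foxa1 and Foxa2 was 0.833, 0.952 and 0.739 within the slides of 8 mice, none past adjustment, and the pairs past it numbered 2 with the processed signal and 0 within each slide. The slides hold too few mice per group for a pair alone to pass adjustment there, so the missing calls within slides decide nothing. Apart from the fits with fewer arrays, the causes were not tested. The labels do not say that the replicate numbers pair the mice. Same-numbered mice of different groups correlated at -0.30 to 0.35 (median 0.0018 over 22 pairs, 5 above 0.1). Mice of other numbers in different groups had a median of -0.015. These correlations cannot exclude a shared litter, which was not tested. The block on the replicate number changed no other call of a member.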

Other observations

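Genes of secreted liver proteins, many of which carry binding sites of these factors, were tested for 14 of 15 genes. Afm, the vitamin E carrier afamin, rose in HFoleic by 0.52 log2 units over the reference (SE 0.097, adjusted p 0.00237 by limma, 2 of 2 probes called). The brightest probes of the other 13 were not called, although 1 of 2 probes of Ttr was. The list's median difference was 0.048 in HFoleic and 0.011 in HFepa, where 0 of 14 were called and Afm was 0.32 above the reference (adjusted p 0.142). Of 10 tested acute phase genes, several of them classical targets of Cebpb, 0 were called in any comparison, with medians of 0.11 in HFoleic and 0.063 in HFepa. Their mean log2 signal per mouse spread over 11.99 to 13.19 in the reference, 12.01 to 13.44 in HFoleic and 12.07 to 13.13 in HFepa. Single genes moved further and in opposite directions. Hamp differed from the reference by -0.84 in HFoleic and -1.03 in HFepa (adjusted p 0.101 and 0.134 by limma). Saa3 differed by 0.39 in HFoleic and 0.77 in HFepa (adjusted p 0.279 and 0.0981 by limma).

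Of 7 stellate cell genes, Lrat, which stores retinol as esters, rose in HFoleic by 0.56 (SE 0.096, adjusted p 0.0015 by limma), and the brightest probes of the other 6 were not called, although 1 of 3 probes of Hgf was. In HFepa Lrat was 0.25 above the reference (adjusted p 0.255), and HFepa minus HFoleic was -0.31 (adjusted p 0.307).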
